A study of Homo sapiens with 6 samples.

Results

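Mucins are large glycoproteins whose backbones carry dense O-linked sugar chains, and they were followed here through 7 genes of the 34594 entries deposited for each array: MUC1, MUC4, MUC5AC, MUC5B, MUC13, MUC16 and MUC20. The members were taken by gene symbol, and each symbol had 1 entry. The set was chosen by gene family with earlier results of these arrays known, selected on the high differences of MUC13 and MUC5AC between ATP and control arrays, so the ATP values below are a description with no test. The cells were PC-3M, a human line derived from metastases of the prostate cancer line PC-3, in the form of its subclones 1E8, known as highly metastatic, and 2B4, known as weakly metastatic. Total RNA was hybridised to 6 Illumina bead arrays, 1 for each subclone without ATP, with 100 µM ATP for 6 h and with 100 µM ATP for 12 h, and all cells grew in RPMI medium with fetal bovine serum. Each subclone is 1 clonal line, and with 1 array a group there were no replicates. The treatment protocol covers both times, but no label says which of them a control array stands for, and each control array serves both ATP times. Time in culture therefore cannot be told apart from the effect of ATP or of its duration.

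Mucins fall into gel-forming members, which goblet and other mucous cells store in granules and secrete, and transmembrane members, which stay on the apical surface of epithelia and can be shed from it. Sugar chains are started on serine and threonine by the GALNT enzymes and then extended and capped in the Golgi. Extracellular ATP is a known secretagogue for stored mucin in airway and intestinal epithelia, where it acts through the P2Y2 receptor. In carcinomas, mucin genes are often expressed outside their usual cell types. MUC5AC and MUC5B encode gel-forming mucins of airway and stomach mucus. The other 5 genes encode transmembrane or surface-associated mucins, of which MUC16 carries the CA125 antigen and MUC1 the CA15-3 antigen.

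In the RefSeq annotation of GRCh38.p14, MUC5AC lies between MUC2 and MUC5B on chromosome 11. MUC20 and MUC4 are neighbouring protein-coding genes on chromosome 3, and MUC13 lies elsewhere on the same chromosome, between ITGB5 and HEG1. MUC1 lies on chromosome 1 between TRIM46 and THBS3, and MUC16 on chromosome 19. Promoter windows of the 250 bases before the annotated start were at hand for 4 of the 7 genes. The window of MUC13, the gene with the highest ATP values among the mucins, is shown beside the first of 2 windows of MUC1, which stayed near its control level. Both run 5′ to 3′ on the minus strand of GRCh38.p14, at chr3:124934752-124935001 for MUC13 and chr1:155192916-155193165 for MUC1. Capitals mark motif matches.
MUC13: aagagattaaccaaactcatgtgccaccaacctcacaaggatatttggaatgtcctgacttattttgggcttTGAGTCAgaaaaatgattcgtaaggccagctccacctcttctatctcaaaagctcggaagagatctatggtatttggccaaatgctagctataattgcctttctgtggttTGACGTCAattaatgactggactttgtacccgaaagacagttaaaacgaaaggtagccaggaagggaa
MUC1: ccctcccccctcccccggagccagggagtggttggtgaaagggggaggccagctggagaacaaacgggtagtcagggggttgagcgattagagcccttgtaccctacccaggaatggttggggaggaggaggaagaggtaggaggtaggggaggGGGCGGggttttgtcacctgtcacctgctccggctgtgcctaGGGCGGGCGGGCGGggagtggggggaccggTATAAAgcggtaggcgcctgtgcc

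The motifs searched, on both strands, were the palindromic cAMP response element TGACGTCA, the AP-1 site TGANTCA, the GC box GGGCGG, the TATA box TATAAA, the STAT site TTCNNNGAA and the NF-kB consensus. Positions are counted backwards from the annotated start, with -1 the base before it. The MUC13 window held TGACGTCA at -68 to -61 and TGAGTCA, an AP-1 match, at -178 to -172. Of 35116 human promoter windows of this length, 1.65% held the cAMP response element and 6.57% an AP-1 site, and 18 windows (0.0513%) held both. The MUC1 window held GC boxes starting at -96, -54, -50 and -46, of which the last 3 overlap, and a TATA box at -24 to -19. GC boxes were in 42.6% of all windows and TATA boxes in 10.7%. The MUC13 window was also poor in G and C, at 41.6% against 66.0% for MUC1 and a median of 58.0% over all windows. Of the dim mucins, MUC4 held a GC box starting at -49 and a STAT match at -11 to -3, while 1 window of MUC16 held a GC box starting at -47 and the other an AP-1 match at -136 to -130 and an NF-kB match at -201 to -192. STAT sites were in 6.57% of windows and NF-kB matches in 9.96%. A match describes the letters of a window and is not a site of binding. Among the tested genes defined below, the 283 with the cAMP response element had a median ATP difference of -0.01 on the log2 scale, the 443 with an AP-1 site -0.02, the 7 with both 0.07, and all 7508 with a window -0.04.

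**Figure D1:**
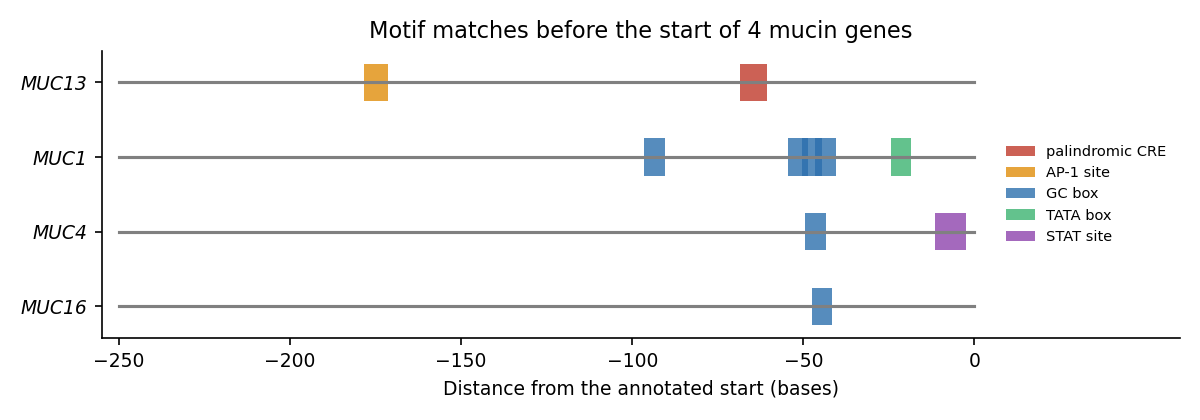
Motif matches in the 250 bases before the annotated start of MUC1, MUC13, MUC4 and MUC16, in the first window of each gene. The other window of MUC16, with an AP-1 match at -136 to -130 and an NF-kB match at -201 to -192, is not drawn. The horizontal axis is the distance from the start in bases, each row is 1 gene, and each mark is 1 match on either strand. The MUC13 row holds the only cAMP response element, at -68 to -61, and an AP-1 match at -178 to -172.

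The deposited values were linear intensities after background subtraction, in arbitrary units, so a gene at background sat near 0 and could be negative. Background was described on each array by the most common dim intensity, called the peak, and by the width of the values below it. The detection limit was set 3 widths over that peak. The limits were 29.1 on the 1E8 control array, which had the narrowest background, and 42.9 to 52.5 on the other 5 arrays. Between 9408 and 11284 entries were above the limit on an array. The arrays carry no counts, and their number limits the precision.

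MUC1, MUC13 and MUC5AC exceeded the limit on every array, and MUC4, MUC5B, MUC16 and MUC20 on none, which makes 3 of the 7 mucins detected. MUC5AC lay 27.0 to 80.9 widths above the peak. MUC13 ranged from 3.87 widths on the 2B4 control array to 51.0 on the 1E8 6 h array. MUC1 lay 3.64 to 8.92 widths above the peak and was thus near the limit in both subclones. These distances say how well each probe was measured and do not rank the genes by transcript number. With the limit at 5 widths, a setting chosen after seeing the data, MUC5AC alone remained above it on all 6 arrays, with MUC13 above it on 5 and MUC1 on 3.

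The other 4 mucins were at background throughout. MUC4, a transmembrane mucin that can partner with ERBB2, had intensities of 5.01, 9.50 and 12.2 in 1E8 (control, 6 h and 12 h) and 11.3, 11.0 and 6.59 in 2B4. MUC16 had 3.53, 10.6 and 10.6 in 1E8 and 5.44, 7.45 and 9.40 in 2B4. MUC5B, the chromosome 11 neighbour of MUC5AC, had 5.89, 6.22 and 4.09 in 1E8 and -2.54, 2.09 and 5.69 in 2B4. None of these values reached 1 width above its array's peak. MUC20 was below 0 on every array, at -15.1, -24.5 and -22.2 in 1E8 and -24.9, -16.2 and -20.2 in 2B4. No difference between arrays is given for these 4 genes, since every value was not well above background. Both members of the MUC20 and MUC4 pair were thus dim, while in the chromosome 11 group MUC5AC was bright and MUC2, MUC5B and MUC6 were not above the limit on any array.

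**Figure D2:**
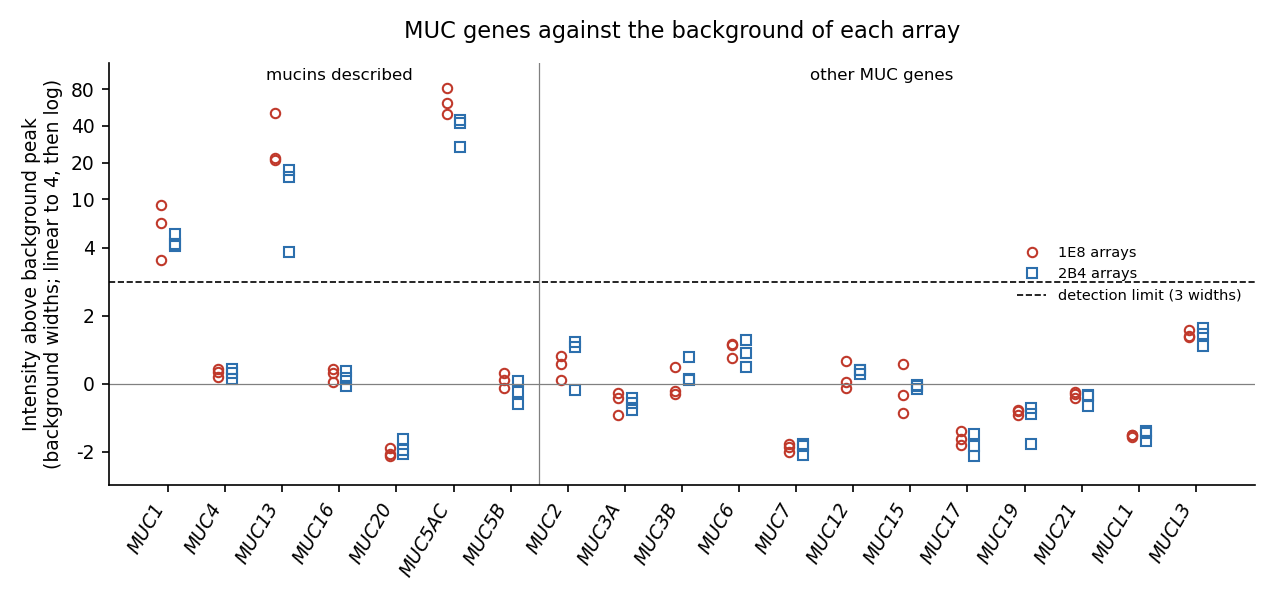
Intensity above the background peak, in background widths of each array, for the 7 mucins described and the other MUC genes in the table. Circles are 1E8 arrays, squares 2B4 arrays, and the dashed line is the detection limit of 3 widths, on an axis that is linear to 4 and logarithmic beyond. MUC1, MUC13 and MUC5AC are above the line on all 6 arrays, and every other gene shown is below it on all 6.

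MUC13 encodes a transmembrane mucin of intestinal and airway epithelium. Its intensity was 183 on the 1E8 control array, 718 at 6 h of ATP and 328 at 12 h. In 2B4 it was 65.8, 206 and 226. Every ATP array was above both control arrays, and the 1E8 array was above the 2B4 array in each condition. The intensity ratio of ATP to control was 3.92 at 6 h and 1.79 at 12 h in 1E8, and 3.12 and 3.43 in 2B4. In 1E8 the 12 h value was thus well below the 6 h value (ratio 0.457), whereas in 2B4 the later array was slightly the higher (ratio 1.10).

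MUC5AC had the same order of conditions as MUC13 in 1E8 but not in 2B4. Its intensity was 435 on the 1E8 control array, 1137 at 6 h and 912 at 12 h, and in 2B4 it was 419, 598 and 546. The controls of the 2 subclones were close, with a 1E8 to 2B4 ratio of 1.04, and all 4 ATP arrays were above both. The ratio of ATP to control was 2.61 at 6 h and 2.10 at 12 h in 1E8, against 1.43 and 1.30 in 2B4. The 12 h array was below the 6 h array in both subclones, with ratios of 0.802 and 0.913.

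MUC1, the best known transmembrane mucin of glandular epithelium, kept a narrow range. Its intensity was 80.2, 93.4 and 59.6 in 1E8 (control, 6 h and 12 h) and 69.8, 62.9 and 71.0 in 2B4. The ATP arrays overlapped the controls, and the ratio of ATP to control was 1.17 and 0.744 in 1E8 and 0.901 and 1.02 in 2B4. The highest and the lowest of its 6 values were both on 1E8 ATP arrays.

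**Figure D3:**
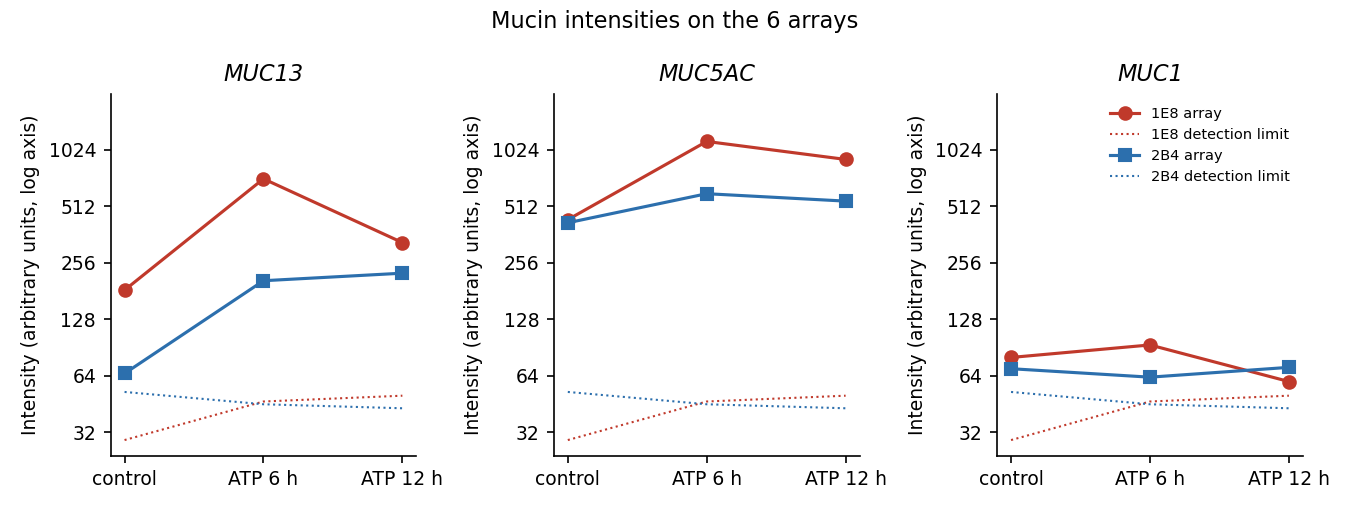
Intensity in arbitrary units, on a log axis, of MUC13, MUC5AC and MUC1 on the 6 arrays. Each point is 1 array, lines join the arrays of a subclone, and dotted lines are the detection limits. MUC13 and MUC5AC are highest on the 1E8 6 h array, at 718 and 1137, and MUC1 stays between 59.6 and 93.4.

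For all differences that follow, negative intensities were raised to 0, 16 was added and the log2 was taken, a scale on which the change of dim genes is understated. A gene above the limit on at least 1 array was tested, which left 11135 genes, among them the 3 detected mucins. A limma model with subclone and condition as additive terms was fitted over the 6 arrays, and p-values were adjusted over all tested genes by the Benjamini-Hochberg method. Its errors and p-values reflect how far these 6 samples depart from additivity, a spread that may be technical.

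Over both subclones and both times, MUC13 was higher with ATP by a log2 of 1.42 ± 0.23 (SE of the fit over 6 arrays) and MUC5AC by 0.82 ± 0.19, while MUC1 was at -0.07 ± 0.16. Ordered from the highest, MUC13 ranked 2 and MUC5AC 9 of 8498 genes detected on every array, and the median of all tested genes was -0.03. At 6 h the values were 1.66 ± 0.27 for MUC13, 0.93 ± 0.21 for MUC5AC and 0.03 ± 0.18 for MUC1. At 12 h they were 1.18 ± 0.27, 0.71 ± 0.21 and -0.16 ± 0.18 in the same order, and these 2 sets of values share the control arrays. Over all genes, limma called 0% at an adjusted p under 0.05 for ATP, for 6 h and for 12 h, with 1134, 1088 and 1016 genes at an unadjusted p under 0.05. Of the 3 detected mucins, 2 were above the control of their own subclone on all 4 ATP arrays, as were 10.2% of tested genes, and the same 2 had every ATP array above the higher control, as had 3.82%. Those contrasts chose the members, and nothing is read from these counts. The MUC5AC value depended on the control arrays, coming to 0.44 without the 1E8 control array and 1.20 without the 2B4 control array. For MUC13 at 12 h it was 0.68 without the 2B4 12 h array and 1.67 without the 1E8 12 h array.

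Set array against array, MUC13 was higher than the control of its subclone by a log2 of 1.88 at 6 h and 0.79 at 12 h in 1E8, and by 1.44 and 1.56 in 2B4. MUC5AC was higher by 1.35 and 1.04 in 1E8, and by 0.50 and 0.37 in 2B4. At least 2-fold on this scale were MUC13 and MUC5AC on both 1E8 comparisons but for MUC13 at 12 h, and MUC13 alone on both 2B4 comparisons. The share of tested genes at least 2-fold higher was 0.521% (1E8 at 6 h), 0.332% (1E8 at 12 h), 0.269% (2B4 at 6 h) and 0.377% (2B4 at 12 h). MUC1 lay between -0.35 and 0.19 on these comparisons.

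**Figure D4:**
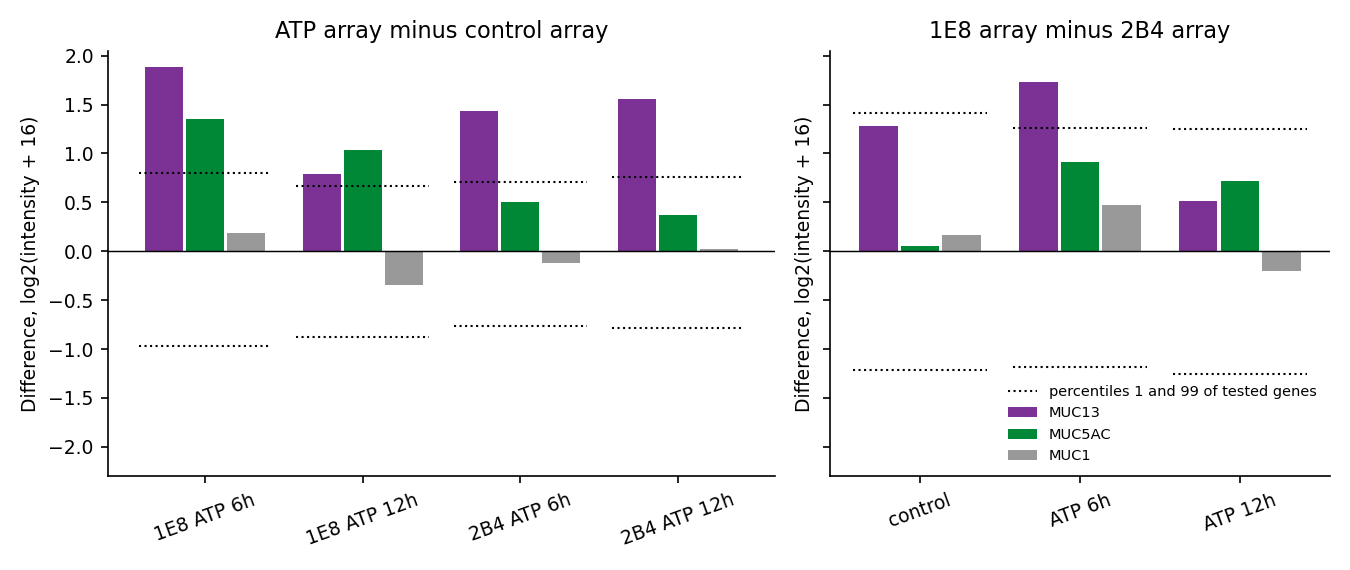
Differences of log2(intensity + 16) between single arrays for MUC13, MUC5AC and MUC1, on the left each ATP array minus the control of its subclone and on the right 1E8 minus 2B4 in the same condition. Each bar is 1 pair of arrays without an error, and dotted lines are percentiles 1 and 99 of the 11135 tested genes. MUC13 is above the upper line on all 4 ATP comparisons, and MUC5AC is above it in 1E8 but not in 2B4.

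The 2 ATP times were compared with each other without use of the controls. In limma, 12 h minus 6 h was -0.48 ± 0.27 for MUC13 (adjusted p = 0.826), -0.22 ± 0.21 for MUC5AC (adjusted p = 0.954) and -0.20 ± 0.18 for MUC1 (adjusted p = 0.945). No mucin passed, and 0% of all tested genes did, with 770 at an unadjusted p under 0.05. The single arrays behind the MUC13 value went apart, with -1.09 in 1E8 and 0.12 in 2B4, and without the 1E8 12 h array the fitted value was 0.01. For MUC5AC both subclones were negative, at -0.31 in 1E8 and -0.13 in 2B4.

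MUC13 passed the test between the subclones. It was higher in 1E8 by a log2 of 1.17 ± 0.22 (limma adjusted p = 0.0158), and higher in 3 of 3 conditions, by 1.28 without ATP, 1.73 at 6 h and 0.51 at 12 h. The subclone contrast called 16.9% of all tested genes, 9.03% as higher and 7.89% as lower in 1E8, and MUC13 ranked 29 from the highest of those 8498 genes. With each array left out in turn, its value ranged from 0.90 to 1.51. Leaving out either array of a condition gives the same subclone value, so there is 1 distinct value per condition. With no filter on dim entries MUC13 was not called (limma adjusted p = 0.327). The 1E8 values did not all lie above the 2B4 values, since the 1E8 control array (183) was below the 2B4 ATP arrays (206 and 226). At least 2-fold higher in 1E8 were 2.85% of tested genes without ATP, 1.80% at 6 h and 1.74% at 12 h, and MUC13 was among them without ATP and at 6 h.

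For MUC5AC the subclone value of 0.56 ± 0.17 missed the threshold (limma adjusted p = 0.0736). It rested on the ATP arrays, with single-array differences of 0.05 without ATP, 0.91 at 6 h and 0.72 at 12 h. Without either control array it was 0.81 and passed (adjusted p = 0.00839), and without either 6 h array it was 0.39 and did not (adjusted p = 0.294). MUC1 was at 0.14 ± 0.15 (adjusted p = 0.544), with 0.16, 0.47 and -0.20 in the 3 conditions. Of the 3 mucins, MUC13 and MUC5AC were above 2B4 in all 3 conditions, as were 28.2% of tested genes. For MUC5AC this did not hold without ATP once the arrays were scaled to 1 median or quantile normalized, where that difference was -0.01 in both cases.

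The difference between the subclones in their ATP response was tested with an added term, which leaves 1 residual degree of freedom. The ATP difference of MUC5AC was larger in 1E8 by a log2 of 0.76 ± 0.19, which did not pass in limma (adjusted p = 0.174). It passed with an offset of 50 in place of 16 (limma adjusted p = 0.0400), where the term called 365 genes. With a mean-variance trend it also passed (adjusted p = 0.0121), and there the term called 748 genes. MUC5AC was selected on ATP differences that this term also uses, so its p-values here are descriptions and nothing is read from them. For MUC13 the same difference was -0.16 ± 0.47 (adjusted p = 0.879) and for MUC1 -0.03 ± 0.30 (adjusted p = 0.968). The error of the MUC13 value is wide enough to hold a difference of either sign, so it does not show that the subclones responded alike. This term called 0.00898% of tested genes, or 1 gene, and its median over all tested genes was -0.07.

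Across the 6 arrays, MUC13 and MUC5AC followed each other with a Pearson r of 0.903 on the log2 scale, against 0.430 for MUC1 with MUC13 and 0.214 for MUC1 with MUC5AC. These 6 points share subclones and treatment, and the r values are descriptions. Among 1391 genes detected on every array and with an SD of at least 0.3, the closest to MUC13 were the cytokine gene CLCF1 (r = 0.980), the autophagy receptor SQSTM1 (0.969) and the adhesion G protein-coupled receptor ADGRG6 (0.965, deposited as GPR126). CLCF1 had intensities of 100.5, 161 and 116 in 1E8 (control, 6 h and 12 h) and 67.2, 99.3 and 91.6 in 2B4, with the same peak on the 1E8 6 h array. Closest to MUC5AC were CYSTM1 (0.942, deposited as C5ORF32), the fibrillin gene FBN2 (0.940) and again SQSTM1 (0.934). FBN2 had 289, 663 and 629 in 1E8 and 289, 436 and 487 in 2B4, so its controls were alike and its ATP arrays higher in 1E8, as for MUC5AC. For MUC1 they were LOC100129550 (0.899), the synaptic adhesion gene LRFN4 (0.800) and the interferon-induced IFIT2 (0.760).

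The rest of the mucin family was mostly not detected. Of 18 other family members listed, 17 were in the table, and CD164, OVGP1 and PODXL were above the limit on at least 1 array. All 12 other genes named MUC or MUCL in the table, among them the gel-forming MUC2, MUC6 and MUC19, were below the limit on all 6 arrays, the highest being MUCL3 at 1.64 widths. CD164, an endosomal sialomucin, was at -0.15 ± 0.15 with ATP, and OVGP1, oviductal glycoprotein, at 0.14 ± 0.16. PODXL, the anti-adhesive sialomucin podocalyxin, was above the limit on the 3 arrays of 1E8 (82.2, 66.9 and 63.9) and on none of 2B4 (38.7, 31.7 and 35.7). It was at least 1.38-fold higher in 1E8, the mean of 1E8 being set against the mean of the limits, or of the values where higher, in 2B4. It entered the tested genes through 1E8 alone, so its test between subclones is not given.

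No gene of the glycosylation, secretion or induction lists passed for ATP against control in limma, as none did over all genes, and the list medians stayed between -0.06 and 0.17. Positive with ATP were 41.958% of all tested genes, the background for the counts of positive genes in these lists. Of 17 GALNT genes, 10 were tested, 7 of them positive with ATP with a median of 0.17. GALNT4 was at 0.36 ± 0.12, with intensities of 129, 183 and 137 in 1E8 and 129, 191 and 176 in 2B4, and GALNT2 at 0.18 ± 0.13. Of 18 genes of core synthesis, extension and capping, 10 were tested and 4 were positive, with a median of -0.06. B3GNT3, which extends core 1 chains, was at 0.40 ± 0.18 and the sialyltransferase ST3GAL1 at -0.29 ± 0.14. Between subclones 0 of 10 GALNT genes and 1 of 10 core genes were called by limma, against the 16.9% of all tested genes. C1GALT1, the core 1 synthase, was higher in 1E8 by 0.83 ± 0.16 (limma adjusted p = 0.0173). Its chaperone C1GALT1C1 was at -0.52 ± 0.17 (adjusted p = 0.0860).

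The goblet program, the genes that goblet cells use to fold, package and accompany secreted mucin, had 9 of 21 genes tested, of which 3 were positive with ATP and the median was -0.02. FOXA1, a pioneer transcription factor, was at -0.36 ± 0.11 and the trefoil peptide gene TFF3, whose product is secreted with mucins, at -0.22 ± 0.11. TFF3 was higher in 1E8 by 1.12 ± 0.11 (limma adjusted p = 0.00158), with 7578, 5763 and 6478 in 1E8 against 3210, 2833 and 3014 in 2B4. All 3 arrays of 1E8 were thus above all 3 of 2B4, as for 18.8% of tested genes. The sulfhydryl oxidase QSOX1 was lower at -0.58 ± 0.13 (adjusted p = 0.0246), a call lost without either 6 h array (adjusted p = 0.0784) or either 12 h array (0.126). FOXA2 was above the limit on the 1E8 control array alone, with 59.2, 28.4 and 43.7 in 1E8 and 36.0, 18.8 and 24.2 in 2B4, and its test between subclones is not given.

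Of 14 genes of granule exocytosis, 10 were tested, 5 were positive with ATP and the median was -0.01, with STX2, a plasma membrane syntaxin, at -0.22 ± 0.11. Between subclones, limma called 1 of the 10 tested genes lower in 1E8, against 7.89% of all tested genes. That gene, STX3, was detected on every array. STX3, an apical syntaxin, was at -0.43 ± 0.11 (limma adjusted p = 0.0408), a call lost without either 6 h array (adjusted p = 0.294) or either 12 h array (0.122). P2RY2, the P2Y2 receptor, had 30.7, 26.7 and 33.0 in 1E8 and 12.5, 7.74 and 14.7 in 2B4. It was above the limit on the 1E8 control array only, and no difference is given for it. P2RY2 entered the tested genes through that array alone, so its call as higher in 1E8 is not counted above. Of 18 partners and sheddases of membrane mucins, 12 were tested, 7 were positive with ATP and the median was 0.01. The linker ezrin (EZR) was at 0.37 ± 0.13 and moesin (MSN) at 0.27 ± 0.12. MSN was lower in 1E8 at -0.59 ± 0.11 (limma adjusted p = 0.0173), the 1 call among the 12 tested genes of this list against 7.89% called lower over all genes, and it was lost without either 12 h array (adjusted p = 0.0826).

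Of 18 known inducers of mucin genes and their transcription factors, 10 were tested, 5 were positive with ATP and the median was 0.02. HBEGF, an EGF receptor ligand, had the highest ATP value of the list, 0.76 ± 0.20, with intensities of 106, 201 and 122 in 1E8 and 74.8, 155 and 178 in 2B4. Its arrays were in the same order within each subclone as those of MUC13: 6 h highest in 1E8, 12 h highest in 2B4 and the control lowest in both. The share of tested genes with that order was not counted, and a link between HBEGF and MUC13 was not tested. The EGF receptor gene EGFR was below the limit on all 6 arrays, at 12.5 to 20.7. ERBB3 was also below it throughout, and ERBB2 was above it only on the 1E8 control array, which had the lowest limit. Between subclones HBEGF was at 0.09 ± 0.19 (limma adjusted p = 0.784). The AP-1 subunit FOSL1 was at -0.68 ± 0.21, which did not pass (limma adjusted p = 0.0731). Its intensities were 289, 330 and 408 in 1E8 (control, 6 h and 12 h) and 711, 552 and 431 in 2B4. Higher in 1E8 were JUN, an AP-1 subunit (0.62 ± 0.12, adjusted p = 0.0160), and the EGF receptor ligand TGFA (0.60 ± 0.11, adjusted p = 0.0138), the latter lost without either 6 h array (adjusted p = 0.0796). IL1B was above the limit on all arrays of 2B4 and none of 1E8 and at least 2.19-fold higher in 2B4, the opposite direction to MUC13. It entered the tested genes through 2B4 alone, so its test is not given.

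**Figure D5:**
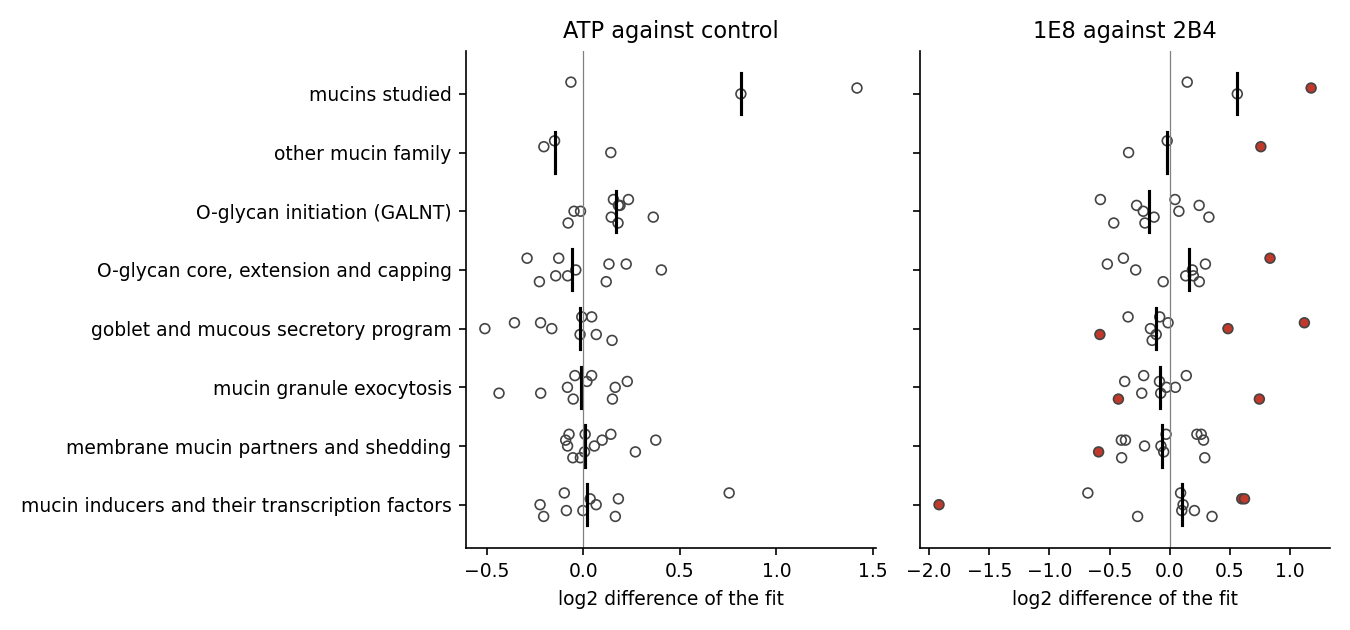
Fitted log2 differences of every tested gene of the mucin lists, on the left ATP against control and on the right 1E8 against 2B4. Each circle is 1 gene, filled where limma's adjusted p was under 0.05, and the bar is the list median. The filled circles on the right include PODXL, FOXA2, P2RY2 and IL1B, which were below the limit on all arrays of 1 subclone. No circle is filled for ATP, and MUC13 has the highest value of all lists in both panels.

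Some markers of the cells differed between the subclones. Among markers detected on every array, limma called 2 of 5 epithelial and 2 of 3 mesenchymal markers higher in 1E8, and 0 lower. Over all tested genes 9.03% were called higher and 7.89% lower. These lists are short. KRT7 entered the tested genes through 1E8 alone, so its call as higher in 1E8 is left out of the count. Of 8 epithelial markers 5 were above the limit on every array, and 2 of them were higher in 1E8, with EPCAM at 1.94 ± 0.15 (limma adjusted p = 0.000683) and KRT8 at 1.01 ± 0.20 (adjusted p = 0.0193), the latter lost without either 12 h array (adjusted p = 0.0633). ELF3 (0.31 ± 0.11), KRT18 (-0.22 ± 0.11) and KRT19 (-0.35 ± 0.11) did not pass. KRT7 was above the limit only on the 1E8 control array, which had the lowest limit (29.1). Its intensities in 1E8 were 39.0 (control), 41.6 (6 h) and 31.4 (12 h). CDH1 and all 7 luminal prostate markers, including KLK2 and KLK3, were below the limit on all 6 arrays. Of 8 fibroblast and mesenchymal markers 3 were tested, and COL1A2 (1.37 ± 0.15, adjusted p = 0.00290) and CDH2 (0.69 ± 0.11, adjusted p = 0.0105) were higher in 1E8, while VIM was at -0.03 ± 0.11. COL1A2 also had a low ATP value, -0.80 ± 0.16, with 570, 416 and 384 in 1E8 (control, 6 h and 12 h) and 284, 138 and 111 in 2B4, so its ATP arrays were below the control of their subclone. The summed intensity of the epithelial list was 2442 to 2809 in 1E8 and 2116 to 2306 in 2B4, and that of the mesenchymal list 5800 to 6490 and 5137 to 5298. In bulk RNA, fewer cells of a type and less RNA per cell cannot be told apart, and the part of these markers in the mucin differences was not tested. Of 8 blood cell markers (leukocyte genes and the globin gene HBB) and 5 endothelial markers, CD68 and PECAM1 were above the limit. PTPRC, CDH5 and VWF were below 0 on all 6 arrays. Summed intensities were 439 to 662 for the blood cell list and 30.9 to 68.8 for the endothelial list. Neither CD68 nor PECAM1 was called for ATP or subclone. PECAM1 was at 0.40 ± 0.13 with ATP.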

How the data were processed

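The intensity values used were deposited by the authors on a linear scale, 1 value per entry and array. How they were made is not given in the sources used here. Background had been subtracted and arrays brought to 1 scale, as the values show: 24.0% to 25.5% of entries lay below 0 on each array, and array means were 193 to 194. Per the labels' protocols, total RNA was amplified to biotinylated cRNA with an Illumina kit. A second table had 12 columns whose names match no sample label, and it was not used. The design assumed no slide or scan data, and none were at hand to test as batches.

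Background peaks came from a kernel density (bandwidth 2). Entries named by a sequence cluster (3270) and 489 dimmer entries of a gene were left out. Names were updated through the RefSeq table of GRCh38.p14: 17757 entries had a current symbol, 3303 a unique synonym, and 13534 kept the deposited name. The files give no probe positions, so isoforms could not be told apart. Fits used limma 3.58.1 in R 4.3.3, with 2 residual degrees of freedom for the additive model, and were tested on simulated data. Python 3.11.15, numpy 2.4.6, pandas 2.3.3 and scipy 1.17.1 did the rest. No pair of arrays was identical, and r between arrays was 0.958 to 0.991.

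The members and all gene lists were chosen with earlier results of these data known. Named were all 7 mucins, of each list up to 4 genes detected on every array (the 2 largest ATP and the 2 largest subclone values), and the 3 genes most like each detected mucin. Genes named beyond that rule were those called in a list with few calls, and defining markers, chosen after their values were seen. Some results that the rule names are left out of the text. Promoter sequences are from RefSeq. Alternatives were an offset of 50, scaling to 1 median, quantile normalization, no filter on dim entries, the limit passed on at least 3 arrays, a mean-variance trend, a 1.5-fold threshold, each array left out, and, added after seeing the data, limits at 2 and 5 widths.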

Additional observations from a re-analysis of the deposited data

Results flagged for a closer look

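Some differences went in opposite directions in the 2 subclones, each on a single array per point, and the difference between the subclones was not tested at single times. From 6 h to 12 h of ATP, MUC13 was lower by a log2 of 1.09 in 1E8 (-1.09) and higher by 0.12 in 2B4, a difference of -1.22. MUC1 was at -0.53 in 1E8 and 0.14 in 2B4 over the same step, a difference of -0.67. Against control, MUC1 at 6 h was at 0.19 in 1E8 and -0.12 in 2B4, a difference of 0.31, and at 12 h at -0.35 and 0.02, a difference of -0.37. MUC1 lay near the detection limit on the 1E8 12 h array, at 3.64 background widths.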

How the results depend on the processing

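No pairing by replicate number was possible because each group holds 1 array, all labelled replicate 1, so the groups share fewer than 2 numbers. Through its condition term, the additive model already matches the subclones over the 3 conditions. Over all genes, the counts for ATP, for 6 h, for 12 h and for 12 h against 6 h were 0, and the subclone contrast called 1884. Leaving out 1 array gave 0 to 57 genes for ATP, 5 to 49 for 6 h, 0 to 24 for 12 h, 0 to 6 for 12 h against 6 h and 888 to 2551 for subclone. In each such fit 1 array is alone in its condition and fitted exactly, and is assumed to vary like the others. The difference between the subclones in ATP effect has no residual degrees of freedom without an array and could not be tested there. That term called 1 gene, against 365 with an offset of 50, 36 where genes had to pass the limit on at least 3 arrays, 748 with a mean-variance trend, 0 with quantile normalization and 0 with no filter. With no filter the subclone count was also 0, among 30835 entries of which 4419 were at 0 or below on all arrays and carry no spread, and the adjusted p of MUC13 was 0.327. A mean-variance trend called 1 gene at 6 h. Summed over the 7 comparisons of single arrays, genes at least 2-fold apart numbered 1706, against 650 with an offset of 50, 3990 with no filter and 7790 at 1.5-fold. With a limit of 5 widths, 1 mucin and not 3 was above it on all arrays. MUC13 was called between subclones with an offset of 50, both scalings, the filter on 3 arrays, the trend and each array left out (adjusted p of 0.00244 to 0.0385), and not with no filter. MUC5AC passed there with an offset of 50 (adjusted p = 0.0373) and with a trend (0.0354). Some signs changed. The subclone difference in ATP effect was 0.0133 for MUC13 with an offset of 50, and 0.0819 (median scaling) and 0.0173 (quantile) for MUC1. Without 1 array, 12 h against 6 h ranged from -0.98 to 0.0130 for MUC13, -0.48 to 0.0395 for MUC5AC and -0.46 to 0.0633 for MUC1, and subclone from -0.0187 to 0.32 for MUC1. MUC1 then ranged from -0.20 to 0.06 for ATP, -0.21 to 0.28 at 6 h and -0.42 to 0.10 at 12 h. The cause of these changes was not tested. MUC1 was near the detection limit, and for the 4 undetected mucins no difference between arrays is given.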
